A study of Homo sapiens with 15 samples.

Results

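Dexamethasone action in A549 cells was interfered with in 2 ways, by a polyamide that binds DNA and by mifepristone, which binds the glucocorticoid receptor, and the comparison described here sets the first against the second. It uses the 6 of 15 arrays whose titles name the match polyamide or mifepristone, 3 of each. A549 is an established human lung adenocarcinoma line, grown here in F12K medium with charcoal-treated serum, which is low in steroids. The 3 match arrays came from cells given the match polyamide for 48 hours and dexamethasone for 6 hours. The 3 mifepristone arrays came from cells given mifepristone for 48 hours and dexamethasone for 6 hours. The other 9 arrays, used for context, came from cells given the mismatch polyamide for 48 hours and dexamethasone for 6 hours, from cells given dexamethasone alone for 6 hours, and from non-treated cells, with 3 arrays each. No source used here states a dose. Whether the arrays of a group come from separate cultures is also unstated, so p-values measure only how these arrays vary, and that variation could be technical.

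Dexamethasone is a synthetic glucocorticoid. It enters the cell and binds the glucocorticoid receptor, which moves to the nucleus, binds response elements made of paired copies of a hexamer close to AGAACA, and recruits co-activators that raise transcription. The receptor also lowers many inflammatory genes, in part without binding such elements itself. Mifepristone occupies the hormone pocket of the receptor and holds it in a form that recruits co-activators poorly. Pyrrole-imidazole polyamides are small synthetic ligands that read short sequences from the minor groove of DNA, and the series title describes one directed to the glucocorticoid response element. A match polyamide is built to bind the intended sequence, and a mismatch polyamide to bind another.

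Each probe set, a group of probes for 1 transcript, has 1 deposited signal per array. The signals were quantile normalized, which gives all arrays the same distribution, and all signals below are on that linear scale. Differences are match minus mifepristone on the scale log2(signal + 16), so 1 unit is a 2-fold difference, and the added 16 makes them understate differences of genes with low signals. A difference was called at a Benjamini-Hochberg adjusted p under 0.05 over all 39744 tested probe sets, from a limma fit to all 15 arrays. Of these probe sets, 12315 (31.0%) were called, 6275 higher and 6040 lower with the match polyamide. With 1 probe set standing for each gene, 6385 of 16358 genes (39.0%) were called, 3446 higher (21.1%) and 2939 lower (18%), and the median difference of all genes was 0.05. The arrays of 7694 genes (47.0%) did not overlap between the groups. At 2-fold or more, 423 genes were higher and 751 were lower.

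The arrays had not been scaled alike at deposit: 2% trimmed means ran from 90.4 to 107.5 on match arrays and from 119 to 147 on mifepristone arrays. The balance of calls depends on the scaling. Higher probe sets were 51.0% of those called after quantile normalization and 51.6% after trimmed-mean scaling, against 35.4% after median scaling, 21.2% after scaling to the spike-in controls and 11.7% on signals as deposited. The median difference of all tested probe sets was 0.03 after quantile normalization, -0.11 with the spike-in scaling and -0.21 on signals as deposited. Differences below are relative to the quantile-normalized median, and 0 of the probe sets called under both quantile normalization and any of these scalings changed sign. Pearson's r between arrays, over the tested probe sets, was 0.977 to 0.979 among match arrays, 0.982 to 0.984 among mifepristone arrays and 0.944 to 0.952 between the groups. Ratios of the 3' to the 5' beta-actin control probe sets, a sign of RNA integrity, were 1.32 to 1.72 on match arrays and 1.32 to 1.43 on mifepristone arrays, and their part in the results was not tested. The A549 label was checked with 11 epithelial and lung adenocarcinoma markers, whose summed signal was 35173 to 37201 on match arrays and 40054 to 40959 on mifepristone arrays. Of these markers 2 were called higher and 5 lower with the match polyamide. Summed signals of markers of other cell types were far lower: on match arrays 64.03 to 79.2 for 5 leukocyte, 42.2 to 76.4 for 4 endothelial and 388 to 439.9 for 8 fibroblast markers, and on mifepristone arrays 71.01 to 82.8, 51.95 to 60.9 and 315 to 377. By limma 0 of the leukocyte and 0 of the endothelial markers were called (1 and 0 at an unadjusted p under 0.05), and of the fibroblast markers 1 was higher and 1 lower.

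The first question was how the genes that dexamethasone itself raises stand under the 2 compounds. Dexamethasone raised 139 genes at least 2-fold over non-treated cells. The arrays of that choice do not enter the difference of match minus mifepristone. They do enter the estimate of spread behind its p-values, so the counts called are not independent of the choice. Of the 139 genes, 63 were higher with the match polyamide than with mifepristone, 24 were lower and 52 did not pass the test. With each comparison fitted to its own arrays alone, 61 of 139 raised genes were higher and 23 lower. The balance depends on scaling, with 38 of 141 raised genes higher and 38 lower on signals as deposited, and 37 of 126 higher and 23 lower with spike-in scaling. After quantile normalization the share called was 62.6%, against 39.0% of all genes, and the median difference was 0.32, against 0.05. Of the 917 genes that dexamethasone called at under 2-fold, 68.3% were called, 30.3% higher and 37.9% lower. A share called above that of all genes is thus not particular to the raised genes, of which 45.3% were higher and 17.3% lower. Against non-treated cells the median of the 139 genes was 0.59 with the match polyamide and 0.24 with mifepristone, where dexamethasone alone gave 1.39. These 3 comparisons share the non-treated arrays on which the genes were chosen, so these medians are a description. Called above non-treated cells were 85 of the 139 genes with the match polyamide and 21 with mifepristone, where 3169 and 28 of all 16358 genes were called above. In either direction 37.5% and 0.245% of all genes were called. Called below dexamethasone alone were 101 with the match polyamide and 131 with mifepristone, where 2846 and 451 of all 16358 genes were called below. In either direction 38.9% and 5.29% of all genes were called. The 139 genes were chosen as high on these dexamethasone arrays and low on the non-treated arrays, so these counts too are only a description. Dexamethasone alone against non-treated cells called 6.79% of genes and 4.85% of probe sets.

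FKBP5, a co-chaperone of the glucocorticoid receptor and one of its strongest targets, did not pass the test between the compounds. Its signal was 509, 586 and 566 on match arrays and 594, 559.6 and 599 on mifepristone arrays. The groups overlap, and both lie between the mean of 2733 with dexamethasone alone and that of 231 in non-treated cells. The difference was -0.08 (95% interval -0.22 to 0.07, adjusted p = 0.47), and on signals as deposited it was -0.48 with an adjusted p of 0.020. TSC22D3, which encodes the glucocorticoid-induced leucine zipper protein GILZ, separated the compounds. Its signal was 639, 690.2 and 681 on match arrays and 196, 218 and 154 on mifepristone arrays. Every match array was above every mifepristone array, with a difference of 1.75 (SE 0.09, adjusted p = 1.6e-11), against means of 1101 with dexamethasone alone and 123 in non-treated cells.

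The RefSeq promoter windows of these genes, 250 bases before to 50 bases after 1 annotated start of each gene, are shown because the genes are both classical targets of the receptor yet stand apart in this comparison. FKBP5 lies on the minus strand at chr6:35728534-35728833 and TSC22D3 on the minus strand at chrX:107775939-107776238 of GRCh38.p14, and each window is printed 5′ to 3′ along its gene, with AGAACA or its reverse complement TGTTCT in capitals.

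FKBP5: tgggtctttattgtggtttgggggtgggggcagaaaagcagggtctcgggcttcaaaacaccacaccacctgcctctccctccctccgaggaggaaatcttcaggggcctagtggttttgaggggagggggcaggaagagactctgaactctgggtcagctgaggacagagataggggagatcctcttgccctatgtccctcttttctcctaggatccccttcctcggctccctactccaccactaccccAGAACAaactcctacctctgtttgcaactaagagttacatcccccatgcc

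TSC22D3: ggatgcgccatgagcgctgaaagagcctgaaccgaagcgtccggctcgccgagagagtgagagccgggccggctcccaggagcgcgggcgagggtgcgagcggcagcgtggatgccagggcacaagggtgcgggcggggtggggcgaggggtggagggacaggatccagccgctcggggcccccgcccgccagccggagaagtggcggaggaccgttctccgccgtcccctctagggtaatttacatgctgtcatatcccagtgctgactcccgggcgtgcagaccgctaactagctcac

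The FKBP5 window holds 1 copy of AGAACA, beginning at the annotated start, and the TSC22D3 window holds neither hexamer. Either hexamer was in 14.9% of 27305 RefSeq promoter windows and in 10.1% of the 12929 windows that belong to tested genes. Among the genes that dexamethasone raised it was in 2 of 46 windows of genes higher with the match polyamide, in 3 of 18 of genes lower and in 5 of 40 of genes that did not pass. A match of letters is a description of the window and not a binding site, and the receptor's elements further away were not examined. Other starts of FKBP5 and TSC22D3 were not examined either. Whether the windows shown belong to the starts that dexamethasone acts on was not tested.

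Further genes that dexamethasone raised were also higher with the match polyamide. CDKN1C, an inhibitor of cyclin-dependent kinases, had 125, 101 and 105 on match arrays and 21.03, 26.01 and 23.4 on mifepristone arrays, a difference of 1.68 (SE 0.12, adjusted p = 1.7e-09). The mifepristone arrays lay close to the mean of 17.9 in non-treated cells (0.23, adjusted p = 0.80), while dexamethasone alone gave 398. RRAD, a Ras-related GTPase that restrains voltage-gated calcium channels, had 132, 151 and 141 on match arrays and 17.1, 1.44 and 8.25 on mifepristone arrays, a difference of 2.71 (SE 0.18, adjusted p = 3.1e-10). All match arrays were well above all mifepristone arrays, which stood near the mean of 7.998 in non-treated cells. The mean of 141 with the match polyamide was close to the 192 with dexamethasone alone, and that difference did not pass the test (-0.40, adjusted p = 0.10).

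SGK1, a kinase that promotes sodium uptake, had 809, 745 and 856 on match arrays and 249, 263 and 342 on mifepristone arrays, with no overlap and a difference of 1.46 (adjusted p = 4.4e-10). Dexamethasone alone gave a mean of 669 and non-treated cells 336. ANGPTL4, a secreted inhibitor of lipoprotein lipase, had 202, 234 and 276 on match arrays and 55.9, 86.9 and 86.5 on mifepristone arrays, a difference of 1.46 (adjusted p = 3.5e-07). The mifepristone arrays were low, yet above the mean of 24.8 in non-treated cells (1.17, adjusted p = 8.1e-04). DUSP1, which dephosphorylates and inactivates MAP kinases, had 5248, 5001 and 4764 on match arrays and 3179, 3383 and 3169.8 on mifepristone arrays, a difference of 0.62 (adjusted p = 2.3e-09). Both groups lay below the mean of 5791 with dexamethasone alone and above that of 2191 in non-treated cells. KLF9, a zinc-finger transcription factor, had low signals of 14.6, 19.8 and 14.3 on match arrays and 10.5, 3.12 and 6.19 on mifepristone arrays. Its groups do not overlap, but its call (0.52, adjusted p = 0.037) was lost on signals as deposited, with spike-in scaling, and when any 1 match array, mifepristone replicate 2 or mifepristone replicate 3 was left out (differences of 0.40 to 0.57). With 1 added in place of 16 this probe set was at 1.29 and not called (adjusted p = 0.072), and another KLF9 probe set, at -0.057, stands for the gene.

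**Figure D1:**
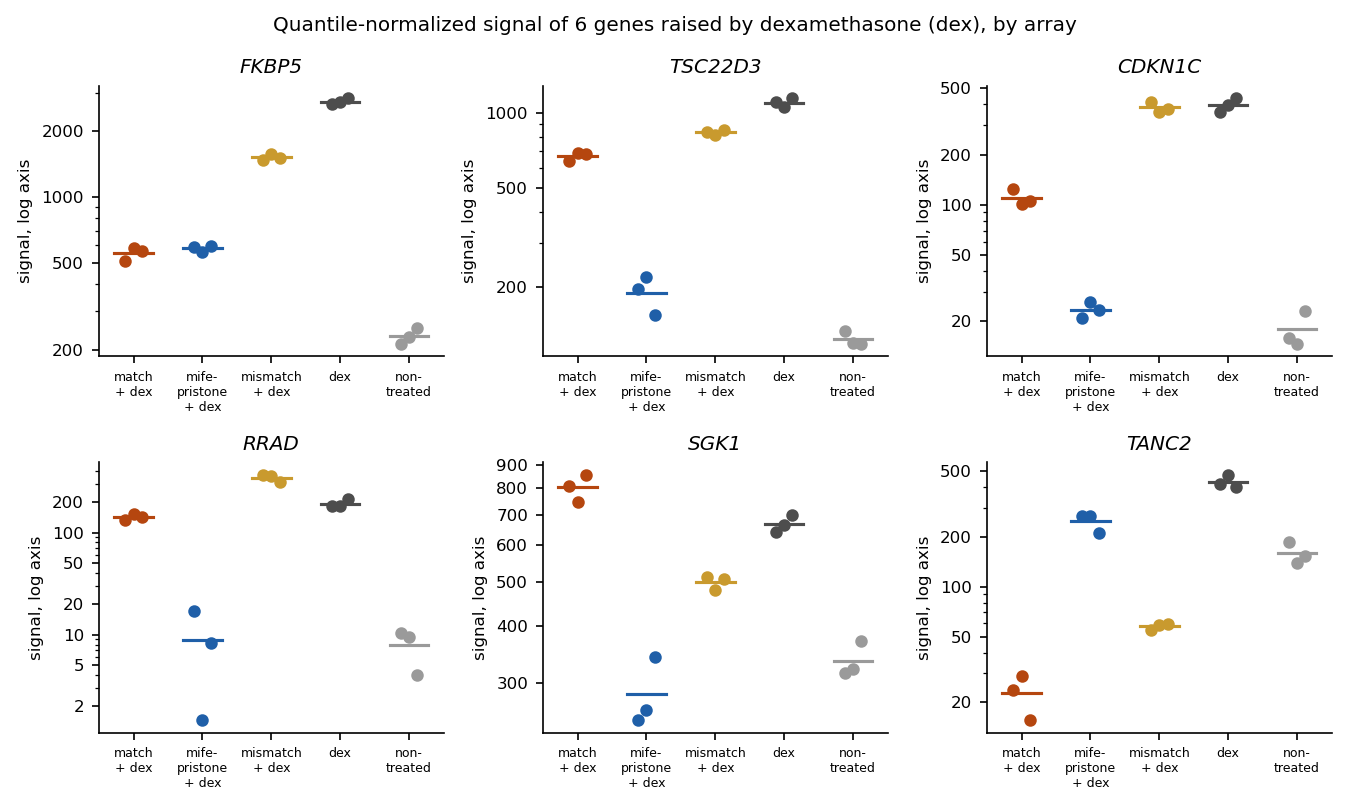
Quantile-normalized signal on a log axis for 6 genes above non-treated cells with dexamethasone alone, 1 point per array and a line at the mean of each group of 3, in the order match, mifepristone, mismatch, dexamethasone and non-treated. FKBP5 overlaps between match and mifepristone, TSC22D3, CDKN1C, RRAD and SGK1 are higher on all match arrays, and TANC2 is lower on all match arrays.

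The 6 raised genes with the largest differences in favour of the match polyamide were RRAD, KLF4, CAVIN2, CHST7, GADD45A and GRAMD4. KLF4, a zinc-finger transcription factor, had 1230.3, 1151 and 1002 on match arrays and 225, 234 and 231 on mifepristone arrays (2.21, adjusted p = 1.8e-13). CAVIN2, a coat protein of caveolae, had 2200.3, 1678 and 1844 on match arrays and 470.3, 438 and 318 on mifepristone arrays (2.19, adjusted p = 4.6e-11). CHST7, a sulfotransferase of chondroitin chains, had 695, 747 and 752 on match arrays and 165, 124 and 156 on mifepristone arrays (2.19, adjusted p = 1.5e-12). For all 3 the mean of the mifepristone arrays did not pass the test against non-treated cells, whose means were 234, 321 and 134, and the match arrays lay above the means with dexamethasone alone, which were 564, 1252 and 379. GADD45A, which slows the cell cycle after DNA damage and stress, had 592, 598 and 620.3 on match arrays and 148, 166 and 163 on mifepristone arrays (1.82, adjusted p = 1.2e-12). GRAMD4 had 305, 385 and 352 on match arrays and 91.7, 113 and 70.04 on mifepristone arrays (1.77, adjusted p = 1.2e-09).

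The 6 raised genes with the largest differences the other way were TANC2, HIPK2, NAV2, ZBTB20, SDK2 and AKAP13, whose genomic spans run from 216 to 833 kb. TANC2, a scaffold protein of synapses, had 23.8, 29.02 and 15.6 on match arrays and 268, 266 and 211 on mifepristone arrays (-2.78, SE 0.14, adjusted p = 4.9e-12). The match arrays lay below the mean of 160.1 in non-treated cells (-2.19, adjusted p = 1.8e-10), and the mifepristone arrays lay above it and below the mean of 429 with dexamethasone alone. HIPK2, a nuclear kinase active in stress signalling, had 164, 162 and 167 on match arrays and 649.7, 692 and 472 on mifepristone arrays (-1.76, adjusted p = 1.8e-10). ZBTB20, a zinc-finger repressor, had 51.8, 60.7 and 66.6 on match arrays and 222, 212 and 220.5 on mifepristone arrays (-1.63, adjusted p = 5.7e-09). Match arrays of both genes were also below non-treated cells, with means of 462 and 152. NAV2, a regulator of the cytoskeleton, differed by -1.67 (adjusted p = 2.7e-07) and AKAP13, an anchor of protein kinase A, by -1.28 (adjusted p = 6.2e-07). Other probe sets of ZBTB20, NAV2 and HIPK2 disagree in part, and 1 for ZBTB20 was called higher (0.81, adjusted p = 0.0026). Further AKAP13 probe sets had smaller differences: some were called lower, at -0.57, -0.62 and -0.79, and the others, at -0.13 to -0.52, were not called. SDK2, an adhesion molecule, had low signals of 4.22, 1.11 and 2.03 on match arrays and 36.5, 23.2 and 29.4 on mifepristone arrays (-1.30, adjusted p = 5.4e-05), and without dexamethasone replicate 1 or 2 the gene is represented by another probe set with a difference of 0.038, as is the case without mifepristone replicate 3, at -0.013.

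**Figure D2:**
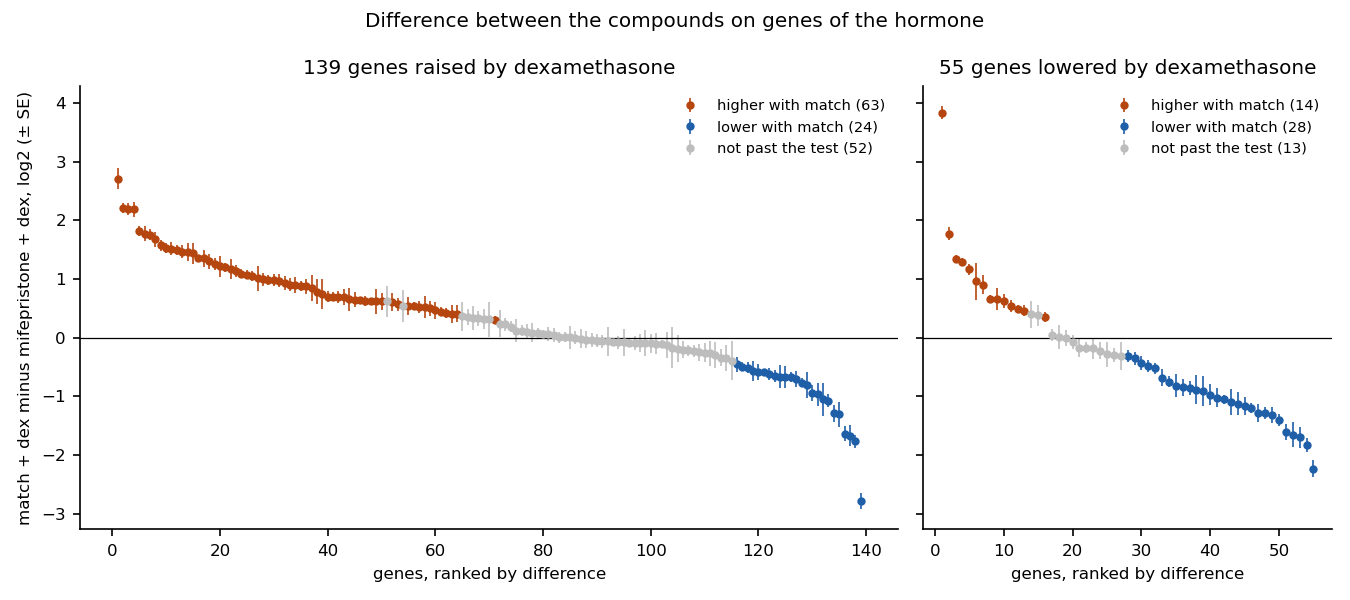
Match minus mifepristone difference on the log2 scale with its SE for each of the 139 genes raised and the 55 genes lowered at least 2-fold by dexamethasone, ranked by the difference and coloured by the call. Of the raised genes 63 were higher and 24 lower with match, and of the lowered genes 14 were higher and 28 lower.

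Among the 47 tested members of a list of genes known to be induced by glucocorticoids, 24 were higher with the match polyamide, 5 were lower and 18 did not pass, with a median difference of 0.35 against 0.05 over all genes. On signals as deposited 15 were higher and 6 lower. The list holds TSC22D3, CAVIN2, RGS2 and ERRFI1 as the members with the smallest adjusted p. RGS2, which shortens G-protein signalling, had 782, 783 and 759 on match arrays and 258, 243 and 276 on mifepristone arrays (1.52, adjusted p = 4.9e-11). ERRFI1, a feedback inhibitor of the EGF receptor, had 2888, 2976 and 2729.7 on match arrays and 1117, 1121 and 1073 on mifepristone arrays (1.36, adjusted p = 1.7e-13). Neither gene's groups overlap. Among the 18 members that did not pass, some were far below the level of dexamethasone alone with both compounds. Chosen after their values were seen, TFCP2L1 averaged 97.3 on match arrays and 92.1 on mifepristone arrays (0.06, 95% interval -0.17 to 0.30), against 598 with dexamethasone alone, and CEBPD, a transcription factor of the acute phase, averaged 522 and 498 in the same order (0.07, 95% interval -0.07 to 0.20), against 1232. DNAJC15 averaged 2.25 on match arrays and 6.24 on mifepristone arrays (-0.27, 95% interval -0.70 to 0.16), against 207 with dexamethasone alone. Metallothioneins, which bind zinc and copper and are raised by glucocorticoids, had 2 of 7 members higher and 0 lower (0 and 0 on signals as deposited and with spike-in scaling), where 39.0% of all genes were called in either direction, with a median of 0.33 that becomes -0.05 on signals as deposited. The larger of these, MT1X, had 1011, 1188 and 1082 on match arrays and 723, 804 and 879.7 on mifepristone arrays (0.44, adjusted p = 1.1e-04), against 2916 with dexamethasone alone, a call lost on signals as deposited and with spike-in scaling.

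The genes that dexamethasone lowers showed both directions too. Of 55 genes lowered at least 2-fold, 14 were higher with the match polyamide than with mifepristone, 28 were lower and 13 did not pass. The shares were 25.5% higher, near the 21.1% of all genes, and 50.9% lower, against 18% of all genes. The median difference was -0.31, against 0.05 over all genes. On signals as deposited 6 of 53 lowered genes were higher and 31 lower, and with spike-in scaling 7 of 67 were higher and 36 lower. Against non-treated cells the median was -0.62 with the match polyamide and -0.29 with mifepristone, where dexamethasone alone gave -1.25, again as a description that shares the non-treated arrays.

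The 6 lowered genes with the largest negative differences were ST8SIA4, TM4SF20, CCL2, MYOCD, IER5L and DENND5B. ST8SIA4, which adds polysialic acid to adhesion molecules, had 7.92, 7.49 and 10.9 on match arrays and 105, 91.8 and 103 on mifepristone arrays (-2.23, SE 0.14, adjusted p = 1.9e-10). Its means were 15.1 with dexamethasone alone and 114 in non-treated cells, so mifepristone arrays are at the upper level and match arrays at the lower. TM4SF20, a membrane protein, had 203, 155 and 136 on match arrays and 648, 589.9 and 609 on mifepristone arrays (-1.82, adjusted p = 2.8e-10). TNFSF15, a cytokine of the tumour necrosis factor family, had 55.9, 46.7 and 60.7 on match arrays and 188, 158 and 136 on mifepristone arrays (-1.32, adjusted p = 3.0e-07). Dexamethasone alone gave these genes means of 182 and 23.6, against 687 and 202 in non-treated cells. CCL2, a chemokine that attracts monocytes, had 11.1, 6.49 and 13.3 on match arrays and 76.2, 73.9 and 57.1 on mifepristone arrays (-1.69, adjusted p = 2.9e-07). MYOCD, a co-activator of smooth muscle genes, differed by -1.65 (adjusted p = 3.0e-06), IER5L by -1.60 (adjusted p = 8.2e-09) and DENND5B, an activator of Rab GTPases, by -1.40 (adjusted p = 1.1e-09). For DENND5B 1 of 3 further probe sets was called lower, at -0.99, and the others were at 0.07 and -0.20. CYP24A1, the enzyme that degrades active vitamin D, had 1255, 1637 and 1406 on match arrays and 2587, 2435 and 2199 on mifepristone arrays (-0.75, adjusted p = 4.3e-06), both above the mean of 588 with dexamethasone alone.

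The 6 lowered genes with the largest positive differences were NR4A2, LRATD2, STAMBPL1, IER3, EREG and AXIN1. NR4A2, an orphan nuclear receptor and immediate early gene, had the largest positive difference of all genes whose arrays were separated, with 1039.7, 981 and 934 on match arrays and 58.05, 54.6 and 50.4 on mifepristone arrays (3.83, SE 0.11, adjusted p = 5.0e-15). Dexamethasone alone gave a mean of 17.1, against 101 in non-treated cells, and the match arrays stood above every array of those groups. IER3, an immediate early gene that affects survival, had 1688, 1540.2 and 1609.6 on match arrays and 684, 604 and 669 on mifepristone arrays (1.29, adjusted p = 2.6e-11). EREG, a ligand of the EGF receptor, had 696, 666 and 579 on match arrays and 279, 315 and 247 on mifepristone arrays (1.16, adjusted p = 1.2e-08). Non-treated cells had means of 875 and 385, both below every match array. STAMBPL1, a deubiquitinating enzyme, differed by 1.34 (adjusted p = 5.6e-12) and LRATD2 by 1.77 (adjusted p = 2.4e-10). AXIN1, a scaffold of the Wnt pathway, was called at 0.96 (adjusted p = 0.027), but its signals of 34.5, 129 and 78.9 on match arrays and 34.9, 11.2 and 52.5 on mifepristone arrays overlap, and the call was lost on signals as deposited and without match replicate 2 or 3 or mifepristone replicate 2 (0.58 to 0.91).

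Inflammatory genes that glucocorticoids repress also showed both directions. Of 21 tested members, 10 were higher with the match polyamide, 5 were lower and 6 did not pass, with a median of 0.24, against 0.05 over all genes. The shares were 47.6% higher, against 21.1% of all genes, and 23.8% lower, near the 18% of all genes. On signals as deposited, and also with spike-in scaling, 7 members were higher and 5 lower. The 5 lower members were CCL2, TNFSF15, IL11, CXCL5 and PLAU, at -1.69, -1.32, -1.10, -0.79 and -0.64. CCL20, a chemokine that attracts lymphocytes and dendritic cells, had 185, 128 and 129 on match arrays and 1.31, 1.55 and 0.672 on mifepristone arrays (3.23, SE 0.20, adjusted p = 1.4e-10). It was near the bottom of the scale on all mifepristone arrays, as it was with dexamethasone alone, at a mean of 1.41, and in non-treated cells, at 1.48. The filter on low signals asks for only 3 arrays, so the 3 match arrays were enough to bring CCL20 into the test. CXCL2, a chemokine that attracts neutrophils, had 339.9, 293 and 311 on match arrays and 56.5, 75.3 and 81.8 on mifepristone arrays (1.93, adjusted p = 2.8e-10). Without the filter on low signals another CXCL2 probe set, at 0.11 and not called, stands for the gene. CXCL8, interleukin 8, had 34.4, 28.9 and 19.4 on match arrays and 11.4, 17.01 and 7.28 on mifepristone arrays (0.64, adjusted p = 0.024). Its call was lost on signals as deposited, with spike-in scaling, and when match replicate 1 or 2 or mifepristone replicate 1 or 3 was left out (0.52 to 0.63), while a second CXCL8 probe set differed by 1.12 (adjusted p = 0.00016).

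The transcript of the receptor differed between the groups, and receptor protein was not measured on these arrays. NR3C1, the glucocorticoid receptor gene, had 671, 591 and 587 on match arrays and 1388, 1486 and 1276 on mifepristone arrays (-1.15, SE 0.08, adjusted p = 3.7e-10). All match arrays were below all mifepristone arrays, and the mean of 1324 in non-treated cells was close to that with mifepristone (0.06, adjusted p = 0.95). All 4 further NR3C1 probe sets were called lower too, at -0.54 to -1.30. NCOA2 and NCOA1, co-activators that bind steroid receptors, differed by -1.77 (adjusted p = 1.0e-11) and -1.19 (adjusted p = 6.6e-07). NCOA2 had 145, 155 and 125 on match arrays and 574, 537 and 462 on mifepristone arrays. The list of steroid receptors, their chaperones and co-regulators as a whole had 4 of 17 tested members higher (23.5%) and 3 lower (17.6%). These shares are near the 21.1% and 18% of all genes. The median of the list was 0.12, against 0.05 over all genes, and was -0.16 on signals as deposited and -0.02 with spike-in scaling. The 4 higher members were the chaperone partners STIP1, FKBP4 and PTGES3 and the remodelling ATPase SMARCA4, at 0.47, 0.47, 0.12 and 0.49. All 4 of these calls were lost on signals as deposited and with spike-in scaling, where the list had 5 and 4 members lower.

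Most genes called between the compounds were not called with dexamethasone alone, which also holds for most tested genes. Dexamethasone alone did not call 15247 of 16358 genes. Of these, 3091 were higher and 2539 lower with the match polyamide than with mifepristone, 36.9% in all, against 39.0% of all genes. On signals as deposited the same class held 15917 genes, with 586 higher and 4263 lower, and with spike-in scaling it held 15918, with 903 higher and 3150 lower. In the 15247 genes 2806 were called higher and 2560 lower with the match polyamide against non-treated cells, while with mifepristone 1 was higher and 3 were lower. Over all 39744 probe sets, 11864 (29.9%) were called between match and non-treated cells and 66 (0.166%) between mifepristone and non-treated cells, which share the non-treated arrays. Against dexamethasone alone the counts were 12252 (30.8%) with the match polyamide and 1411 (3.55%) with mifepristone. The count of 66 depends on scaling, being 5792 on signals as deposited and 2156 with the spike-in scaling. On quantile-normalized signals the arrays with mifepristone plus dexamethasone had Pearson's r of 0.978 to 0.984 with non-treated arrays, where match arrays had 0.947 to 0.951.

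The 12 most raised genes were NR4A2, RASD1, CCL20, TFF1, RRAD, GKN2, PIERCE2, CD55, ISG15, NEFL, KLF4 and CHST7. RASD1, a Ras-related GTPase first described as induced by dexamethasone, had 453, 251 and 389 on match arrays and 9.56, 30.99 and 24.1 on mifepristone arrays (3.35, adjusted p = 1.6e-10). In these cells dexamethasone alone left it at 16.7, against 18.2 in non-treated cells. TFF1, a secreted trefoil peptide of mucosal repair, had 621, 643 and 705 on match arrays and 82.1, 57.8 and 74.01 on mifepristone arrays (2.95, adjusted p = 4.2e-13). GKN2, a gastrokine normally made by the stomach lining, had 171, 188 and 221 on match arrays and 13.3, 17.5 and 27.4 on mifepristone arrays (2.58, adjusted p = 3.7e-07). Both mucosal genes were low on all mifepristone arrays and on average in non-treated cells, at 62.01 and 24.9. CD55, which protects cells from complement, had 3169.8, 3001 and 2672 on match arrays and 598, 593 and 550.1 on mifepristone arrays (2.31, adjusted p = 6.8e-15). NEFL, the light neurofilament chain, had 274, 237 and 229.7 on match arrays and 38.7, 41.8 and 40.4 on mifepristone arrays (2.22, adjusted p = 7.0e-11). PIERCE2, a protein of ciliary microtubules, had 593, 550.0 and 604 on match arrays and 91.8, 95.2 and 110.0 on mifepristone arrays (2.38, adjusted p = 7.4e-11).

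The 12 most lowered genes were CNTN1, SMYD3, PTPRK, IMMP2L, CACNA2D1, PTPRM, ADK, LPP, EXOC4, TBC1D5, BICC1 and COMMD10. CNTN1, an adhesion molecule of the contactin family, had 83.4, 57.8 and 56.1 on match arrays and 1246, 1042 and 1054 on mifepristone arrays (-3.80, SE 0.11, adjusted p = 4.9e-15). PTPRK, a receptor tyrosine phosphatase found at cell contacts, had 13.9, 16.7 and 11.8 on match arrays and 384, 359.6 and 310.2 on mifepristone arrays (-3.61, adjusted p = 5.4e-15). IMMP2L, a peptidase of the mitochondrial inner membrane, had 1.02, 1.35 and 1.30 on match arrays and 192, 167 and 188 on mifepristone arrays (-3.52, adjusted p = 7.7e-14). In all 3 the match arrays were at least an order of magnitude below the mifepristone arrays. SMYD3, a lysine methyltransferase, had 5.57, 1.49 and 1.83 on match arrays and 229, 207 and 228 on mifepristone arrays (-3.65, adjusted p = 3.5e-13). ADK, the kinase that removes adenosine, had 29.2, 18.9 and 37.7 on match arrays and 468, 470.0 and 479 on mifepristone arrays (-3.47, adjusted p = 4.2e-13). The other 7, which include the calcium channel subunit CACNA2D1, the phosphatase PTPRM, the exocyst subunit EXOC4 and the focal adhesion protein LPP, differed by -3.14 to -3.50. Dexamethasone alone called 1 of the 12 genes, BICC1, and at under 2-fold. All 12 span over 200 kb, from 208 kb for COMMD10 to 899.8 kb for IMMP2L. Further probe sets of LPP, EXOC4 and PTPRK did not all fall: 2 for LPP stood at 0.03 and 0.49 and 1 for EXOC4 at 0.40, none of them called, and 1 for PTPRK stood at -0.27.

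**Figure D3:**
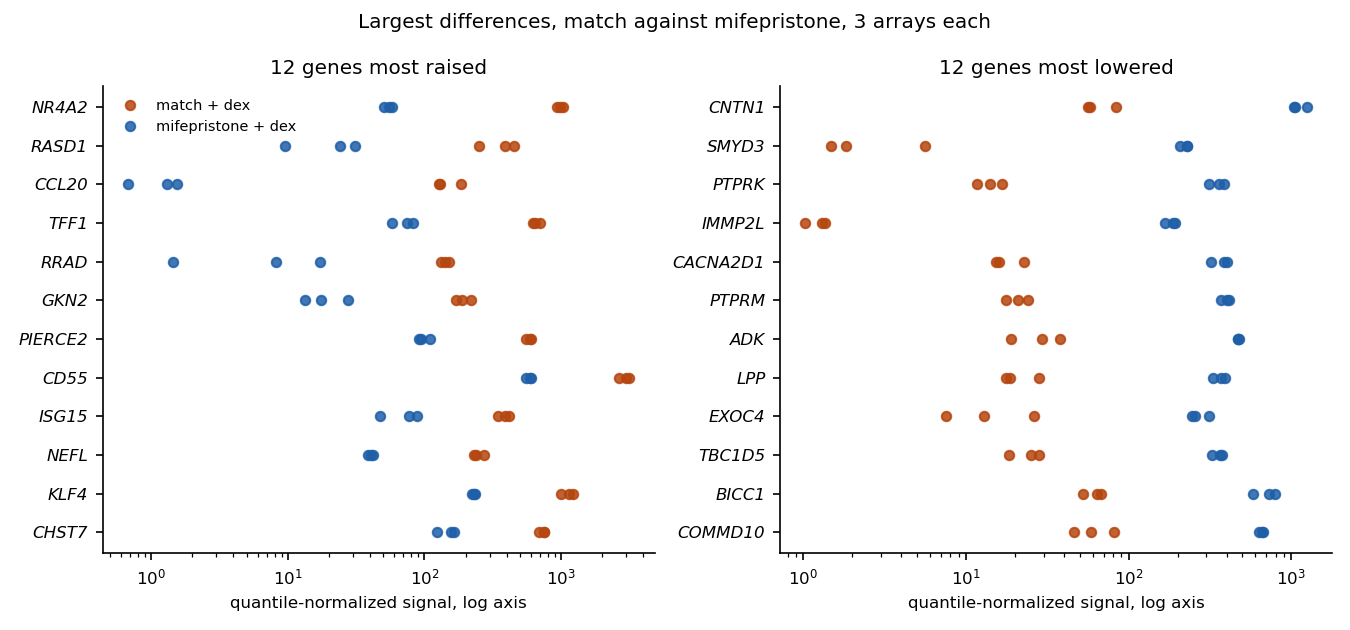
Quantile-normalized signal on a log axis on each of the 3 match and 3 mifepristone arrays for the 12 genes most raised (left) and the 12 most lowered (right), ordered by the size of the difference. The match and mifepristone points of a gene do not overlap in any row, which the choice of these genes fixed.

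Gene span, the distance from the first to the last base of a gene in the RefSeq annotation of GRCh38.p14, was set against the difference for all 16334 genes with a span. Of 4090 genes under 10 kb, 1035 (25.3%) were higher and 247 (6.04%) lower with the match polyamide, with a median of 0.14. Of 916 genes of 200 to 500 kb, 24 (2.62%) were higher and 500 (54.6%) lower, with a median of -0.55. In between, medians were 0.13 for 10 to 50 kb, -0.03 for 50 to 100 kb and -0.29 for 100 to 200 kb, and the 236 genes of 500 kb or more had 3 higher, 98 lower and a median of -0.30. Across genes, which are not independent replicates and share the same 6 arrays, Pearson's r between the log10 span and the difference was -0.37 and Spearman's rank correlation -0.33. Against non-treated cells the median for 200 to 500 kb was -0.57 with the match polyamide and -0.01 with mifepristone. On signals as deposited the genes under 10 kb had 250 higher and 512 lower, so the direction of the short genes depends on the scaling, while those of 200 kb or more had 6 higher, against 27 after quantile normalization.

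Genes raised by dexamethasone were divided by span too. The 83 raised genes under 50 kb numbered 49 higher with the match polyamide than with mifepristone and 7 lower, while 27 did not pass, and their median was 0.62. The 30 raised genes of 100 kb or more numbered 4 higher and 14 lower, while 12 did not pass, and their median was -0.28. Of all genes, 42.0% of those of 100 to 200 kb were lower, 54.6% at 200 to 500 kb and 41.5% at 500 kb or more. The 14 of 30 are thus near the share of long genes in general. Higher were 25.3% of all genes under 10 kb and 27.8% of those of 10 to 50 kb. With dexamethasone alone against non-treated cells the medians of the raised genes were 1.39 under 50 kb and 1.33 at 100 kb or more. With the match polyamide the medians against non-treated cells were 0.78 for the short genes and -0.05 for the long ones, and with mifepristone they were 0.24 and 0.29. FKBP5 spans 155 kb, TSC22D3 62.8 kb, CDKN1C 2.6 kb and RRAD 3.9 kb. SGK1 spans 149 kb in this annotation and was higher with the match polyamide.

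**Figure D4:**
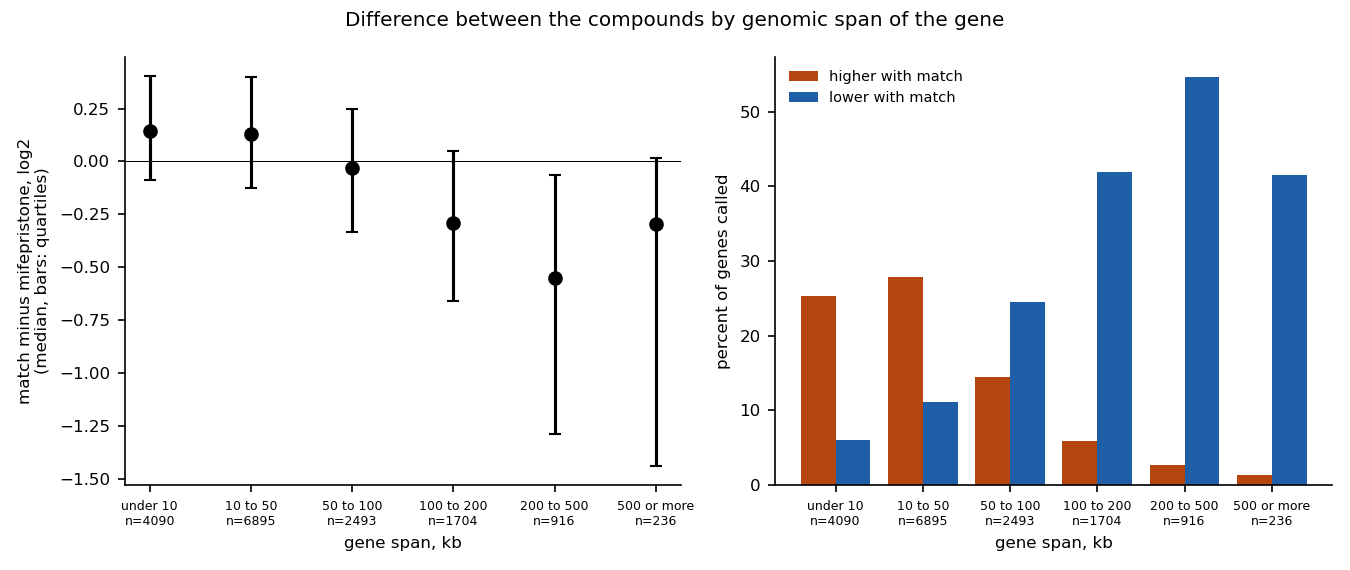
Left, the median match minus mifepristone difference on the log2 scale in 6 bins of gene span in kb, with bars at the quartiles; right, the percent of genes in each bin called higher and lower with match. The median is 0.14 under 10 kb and -0.55 at 200 to 500 kb, where 54.6% of genes were lower.

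Gene lists that stand for pathways were read against the background of 21.1% of genes higher and 18% lower. Where limma called 0 members lower, the counts lower at an unadjusted p under 0.05 were 0 for the immediate early, interferon, metallothionein and ribosomal lists and 1 for the BCL2 list. The counts of the lists depend on scaling, and those on signals as deposited are given beside the counts after quantile normalization where either moves by over 1.5 times. Immediate early genes, the fast transcriptional response to growth factors and stress, had 17 of 23 members higher and 0 lower, with a median of 1.05. Beside NR4A2 and KLF4 these included the MAP kinase phosphatases DUSP6 and DUSP5. DUSP6 had 484, 487 and 502 on match arrays and 125, 98.6 and 106 on mifepristone arrays (2.02, adjusted p = 2.2e-11), and DUSP5 had 939, 931 and 957 and 314, 349 and 327 in the same order (1.47, adjusted p = 7.9e-12). FOS and ATF3 differed by 1.18 and 1.86, while EGR1, at 0.11, did not pass the test (adjusted p = 0.80).

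Targets of p53, the DNA damage and stress regulator, had 21 of 27 members higher and 1 lower (13 and 1 as deposited), with a median of 0.86. FAS, a death receptor, had 409.8, 416 and 403 on match arrays and 146, 164 and 158 on mifepristone arrays (1.31, adjusted p = 2.4e-10). PPM1D, a phosphatase that damps the pathway, had 817, 777 and 793 on match arrays and 342, 317 and 342 on mifepristone arrays (1.21, adjusted p = 2.3e-11). TP53I3, a quinone oxidoreductase, had 2202, 2191 and 2259 on match arrays and 1004, 1065 and 1102 on mifepristone arrays (1.06, adjusted p = 1.9e-11). None of these genes overlaps between the groups, and MDM2, CDKN1A and BAX were also higher, at 1.38, 0.88 and 0.80. Dexamethasone alone gave TP53I3 a mean of 1979.8 and GADD45A one of 476, above the 1027 and 149 of non-treated cells, and dexamethasone raised both. Genes of the BCL2 family and caspases had 12 of 22 members higher and 0 lower (5 and 2 as deposited), with a median of 0.35. The initiator caspase CASP9 had 494, 426 and 469.7 on match arrays and 97.6, 101 and 114 on mifepristone arrays (1.99, adjusted p = 3.3e-12). Both survival and death genes were among the higher members, with the survival genes MCL1 and BCL2A1 at 1.20 and 1.48 and the death gene BIK at 1.39. Genes of DNA damage signalling and repair had 5 of 24 members higher and 10 lower (0 and 14 as deposited), with a median of -0.16. BRIP1, a helicase, had 109, 107 and 103 on match arrays and 239, 264 and 222 on mifepristone arrays (-1.07, adjusted p = 2.0e-08), and XRCC5, the larger Ku subunit, differed by -0.61 (adjusted p = 2.7e-09), while the kinase CHEK2 was higher at 0.88 (adjusted p = 3.7e-06), a call lost on signals as deposited.

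Interferon-stimulated genes had 16 of 26 members higher and 0 lower (14 and 1 as deposited), with a median of 0.89. ISG15, a ubiquitin-like modifier, had 346, 416 and 389 on match arrays and 88.2, 77.4 and 47.7 on mifepristone arrays (2.22, adjusted p = 8.1e-10). OAS1, a sensor of double-stranded RNA, had 1257, 1181 and 1194 on match arrays and 440.3, 444 and 469 on mifepristone arrays (1.39, adjusted p = 1.5e-11). IRF7, a transcription factor of the interferon response, had 196, 260.3 and 295 on match arrays and 64.8, 71.6 and 58.3 on mifepristone arrays (1.70, adjusted p = 1.0e-08). All match arrays were above all mifepristone arrays for each, and mifepristone arrays averaged 71.1, 451 and 64.9, against 57.9, 428 and 60.8 in non-treated cells.

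The list that joins ATF4 targets with genes of endoplasmic reticulum stress had 18 of 31 members higher and 8 lower, with a median of 0.57. The higher members included targets of ATF4, the factor that answers amino acid shortage. ASNS, asparagine synthetase, had 2816, 2934 and 2689 on match arrays and 741, 790.3 and 783 on mifepristone arrays (1.84, SE 0.06, adjusted p = 6.8e-15). TRIB3, a pseudokinase, had 1837, 1954 and 1776 on match arrays and 619, 662 and 676 on mifepristone arrays (1.49, adjusted p = 1.1e-12). CHAC1, CARS1 and MTHFD2 differed by 1.99, 1.13 and 1.01. The 8 lower members included the chaperones of the endoplasmic reticulum PDIA4, HSP90B1 and HSPA5, at -1.03, -0.77 and -0.23, and the cystine transporter SLC7A11, at -1.05 (adjusted p = 2.2e-09). SLC7A11 was also lowered by dexamethasone alone, to 664 against 2054 in non-treated cells, and averaged 823 with the match polyamide and 1719.8 with mifepristone.

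Matrix, basement membrane and integrin genes had 2 of 28 members higher and 21 lower (1 and 22 as deposited), with a median of -0.84. COL5A2, a chain of type V collagen, had 265, 255 and 276 on match arrays and 1615, 1584 and 1356 on mifepristone arrays (-2.44, SE 0.07, adjusted p = 4.9e-15). COL4A6, a chain of basement membrane collagen, had 65.5, 57.3 and 47.6 on match arrays and 350.3, 311 and 312 on mifepristone arrays (-2.23, adjusted p = 4.9e-12). ITGB1, the common partner of many integrins, had 3656, 3698 and 3647 on match arrays and 6796, 6504 and 6602 on mifepristone arrays (-0.85, adjusted p = 6.3e-13). Match arrays were below all mifepristone arrays for each, and fibronectin, FN1, differed by -1.73. The 2 higher members were LAMB3 and ITGB4, subunits of the laminin and the integrin of epithelial anchors, at 1.22 and 0.69. Genes of TGF-beta signalling had 1 of 22 members higher and 15 lower (0 and 15 as deposited), with a median of -0.74. LTBP1, which stores latent TGF-beta in the matrix, had 54.3, 55.7 and 52.7 on match arrays and 338, 303 and 275 on mifepristone arrays (-2.19, adjusted p = 3.2e-11). TGFBR2, a receptor subunit, had 291, 340.4 and 357 on match arrays and 809.6, 809 and 765 on mifepristone arrays (-1.24, adjusted p = 1.4e-10), and TGFBI, a secreted target of the pathway, had 2338, 2224 and 2401 and 5496, 5432 and 5274 in the same order (-1.21, adjusted p = 8.5e-13). CCN2, a target shared with the hormone, averaged 159 and 158 (95% interval of the difference -0.22 to 0.22), against 511 with dexamethasone alone, and TGFBR1 was the 1 higher member, at 0.65, a call lost on signals as deposited and with spike-in scaling.

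Targets of NRF2, the regulator of antioxidant genes that is constitutively active in A549 cells, had 5 of 28 members higher and 14 lower (0 and 15 as deposited), with a median of -0.19. ME1, malic enzyme, had 583, 529.7 and 549.7 on match arrays and 1868, 1779 and 1830.3 on mifepristone arrays (-1.69, adjusted p = 6.5e-14). ABCC3, a pump for conjugated compounds, had 309, 327 and 387 on match arrays and 1434, 1086 and 1168 on mifepristone arrays (-1.80, adjusted p = 1.0e-11). NQO1, a standard target of NRF2, was at 0.01 and did not pass the test (95% interval -0.08 to 0.09). Genes of drug metabolism and transport had 2 of 22 members higher and 7 lower (1 and 9 as deposited), with the pump ABCC4 at -2.01 (adjusted p = 1.2e-11).

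Other lists moved less or in both directions. Epithelial junction genes had 7 of 25 members higher and 8 lower (4 and 11 as deposited), among them CXADR at 1.56 and the cadherins CDH1 at -1.25 and CDH2 at -1.93. CDH1 had 122, 126 and 126 on match arrays and 323, 331 and 302 on mifepristone arrays, while the epithelial marker EPCAM had 569.6, 724 and 525 on match arrays and 261, 248 and 252 on mifepristone arrays (1.19, adjusted p = 3.5e-08). The hypoxia and glycolysis genes had 8 of 29 members higher, with VEGFA at 1.22, and 9 lower, with CA12 at -1.24 (2 higher and 11 lower as deposited). The DNA replication genes had 12 of 29 members higher, with CDT1 at 0.87 (not called on signals as deposited), and 8 lower, with POLA1 at -1.51. The replication list had 0 higher and 12 lower on signals as deposited, 1 and 7 with spike-in scaling and 2 and 8 with median scaling. The mitosis genes had 11 of 30 higher and 5 lower, against 2 and 11 on signals as deposited and 2 and 5 with spike-in scaling. Circadian clock genes had 4 of 18 members higher, with PER2 at 1.49 and a rise under dexamethasone alone as well (mean 449, against 189.9 in non-treated cells), and 2 lower, with BMAL1 at -1.17 (2 higher and 4 lower as deposited). Heat shock genes had 11 of 20 members higher and 3 lower with a median of 0.22, but 0 higher and 4 lower with a median of -0.09 on signals as deposited, and 2 and 4 with spike-in scaling. RNA polymerase II and its factors had 18 of 32 higher and 4 lower with a median of 0.31, but 2 higher and 7 lower with a median of -0.09 on signals as deposited, 2 and 4 with spike-in scaling and 7 and 4 with median scaling. Ribosomal protein genes had 8 of 38 members higher and 0 lower with a median of 0.02 that is -0.17 on signals as deposited and -0.02 with spike-in scaling (1 higher and 1 lower as deposited). Cholesterol synthesis genes had 2 of 19 higher and 1 lower (1 and 8 as deposited), and histone genes 2 of 19 higher and 5 lower (0 and 6 as deposited). The medians of the mitosis, replication, hypoxia and clock lists, between 0.04 and 0.07, were below 0 on signals as deposited and with spike-in scaling. Those of the glucocorticoid-induced, inflammatory, p53, immediate early, ATF4, interferon and BCL2 lists stayed above 0, and those of the TGF-beta, matrix, NRF2, repair, drug metabolism, histone and cholesterol lists below 0, under all 5 scalings tried.

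**Figure D5:**
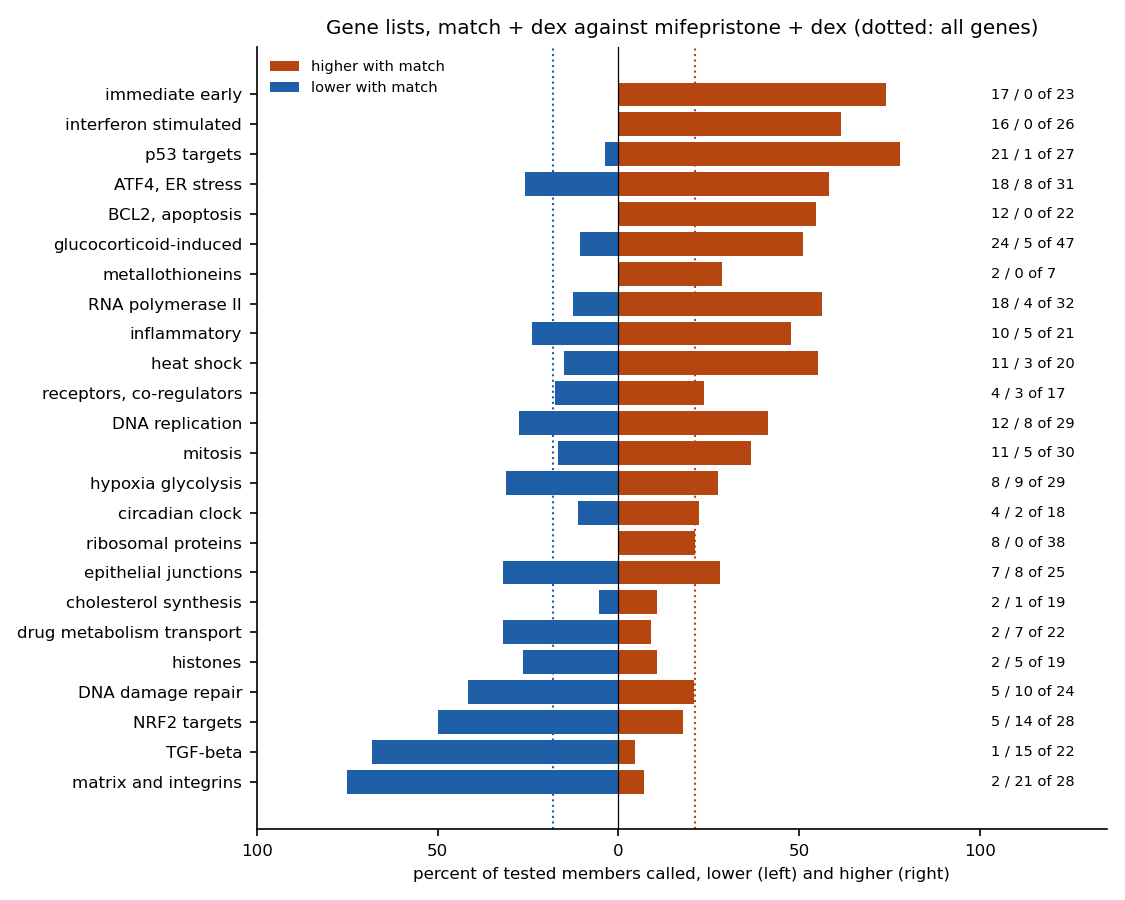
Percent of the tested members of each of 24 gene lists called higher (right) and lower (left) with the match polyamide against mifepristone, ordered by the median difference, with the counts beside each bar and dotted lines at the share of all genes (21.1% higher, 18% lower). Immediate early, interferon and p53 lists lie at the top, and matrix and TGF-beta lists at the bottom.

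The mismatch polyamide, given for the same 48 hours with dexamethasone for 6 hours, was set beside the match polyamide for the genes named above, with doses of neither known here. Between the polyamides 6697 of 39744 probe sets (16.9%) were called. FKBP5 was lower with the match polyamide, whose mean was 554 against 1519 with mismatch (-1.43, adjusted p = 8.7e-11), and so was CDKN1C, at 110.5 against 384 (-1.66, adjusted p = 1.6e-08). RRAD was lower as well (-1.19, adjusted p = 7.9e-05, not called with 1 added to the signals), and TSC22D3 was called at -0.31 (adjusted p = 0.027), a call lost on signals as deposited, with spike-in scaling and when any mismatch array or match replicate 1 or 3 was left out. SGK1 was higher with the match polyamide (0.67, adjusted p = 6.9e-05, not called on signals as deposited), and CYP24A1 was too (1.15, adjusted p = 8.9e-08). For other genes that separate match from mifepristone the polyamides did not pass the test: the 95% interval of match minus mismatch was -0.09 to 0.10 for DUSP1, -0.19 to 0.16 for GADD45A, -0.27 to 0.15 for CHST7, -0.11 to 0.41 for CAVIN2 and -0.20 to 0.40 for ST8SIA4. RASD1 and NEFL, high on match arrays and low on mifepristone arrays, averaged 382 and 239.9 with the mismatch polyamide, with intervals of -0.55 to 0.34 and -0.24 to 0.31. NR4A2 and CCL20 were higher with match than with mismatch, at 2.88 (adjusted p = 1.0e-11) and 2.70 (adjusted p = 1.6e-08). Among the long genes, CNTN1 averaged 311 with the mismatch polyamide, between the 65.8 with match and the 1114 with mifepristone, and EXOC4 averaged 15.5, at -0.01 from match (95% interval -0.42 to 0.41).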

How the data were processed

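Per the labels' protocols, biotin-labelled RNA of A549 cells was read on 15 Affymetrix arrays, 3 for each of 5 groups. The authors deposited linear intensity signals, made with MAS5 per the submitters' processing notes. Neither its version nor its scaling target is known here. The table holds 54675 probe sets. The members and gene lists were chosen with earlier results of these data known.

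Because the deposited signals were not scaled alike, quantile normalization was applied before log2(signal + 16). Probe sets with at least 3 arrays above the 40th percentile of their array were tested, 39744 in all (72.7%) after 62 control probe sets were left out. A limma 3.58.1 model in R 4.3.3, with a term for each group, used all 15 arrays (lmFit and eBayes with a variance trend, 10 residual and 9.36 prior degrees of freedom), with Benjamini-Hochberg adjustment over the tested probe sets. Having only 3 arrays in a group limits precision. In simulated data for match against mifepristone, 67, 67 and 66 of 39744 probe sets were changed 1.5-fold, 2-fold and 4-fold. The model found 28.4%, 67.2% and 100% of these and made 5 false calls, with 135 calls in all. The data had 12315 calls, and the cutoff of the adjustment depends on that number. These shares and the count of false calls therefore do not carry over to the data. For a gene, the brightest probe set naming no other gene was used, with those ending in _x_at last in line, leaving 16358 genes. Of all probe sets 41097 have 1 symbol, 1801 several and 11777 none here.

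Genes named are the 12 most raised and 12 most lowered among called genes with separated arrays, 11 fixed genes of the hormone and its receptor (for PER1, also in the rule, each probe set names another gene as well), the 6 largest differences each way among genes dexamethasone raised or lowered at least 2-fold, and up to 4 members of each of 28 lists (24 pathways and 4 sets of cell markers) with the smallest adjusted p. Members of lists quoted beyond these, and the genes quoted against the mismatch polyamide, were chosen after their values were seen. Promoter windows and spans come from RefSeq tables of GRCh38.p14. Replicate numbers were checked for pairing: correlations of same-numbered deviations from the group means between match and mifepristone arrays were -0.05, 0.08 and -0.02, so the numbers were not taken to pair arrays. Alternatives were other scalings, added constants, filters, no variance trend, only the 6 arrays compared, the mean of a gene's probe sets, a replicate block, and leaving out each array.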

Additional observations from a re-analysis of the deposited data

How the results depend on the processing

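The counts depend on scaling and on the added constant. On signals as deposited, match against mifepristone had 1264 probe sets higher and 9512 lower (main values 6275 and 6040), 261 and 3207 at 2-fold (main 769 and 1520), 38 dexamethasone-raised genes higher and 38 lower (main 63 and 24), 6 dexamethasone-lowered genes higher (main 14), 586 and 4263 higher and lower among genes dexamethasone did not call (main 3091 and 2539), 250 and 512 genes under 10 kb higher and lower (main 1035 and 247) and 6 genes of 200 kb or more higher (main 27); calls were 7562 for match against non-treated, 5792 for mifepristone against non-treated, 7978 for match against dexamethasone (main 12252), 8142 for mifepristone against dexamethasone (main 1411) and 3094 for match against mismatch. With spike-in scaling the same counts were 1893 higher, 408 and 2499 at 2-fold, 37 raised genes higher, 7 lowered genes higher, 903 uncalled genes higher, 365 short genes higher and 10 long genes higher, with 2156, 12826 and 2844 calls for mifepristone against non-treated, mifepristone against dexamethasone and match against mismatch. Median scaling gave 3831 higher, 479 higher at 2-fold, 1887 uncalled genes higher, 685 short genes higher and 43 calls for mifepristone against non-treated, and no variance trend gave 26. Adding 1 gave 1526 and 2549 at 2-fold and 32 of 108 lowered genes higher. Adding 64 gave 252 and 691 at 2-fold, 13 of 90 raised genes lower, and 9 and 11 of 21 lowered genes higher and lower. Averaging a gene's probe sets gave 15 of 37 lowered genes lower. The main classes held 139 raised and 55 lowered genes, so these counts move in part with the size of the class. The direction of some genes turned: MT1E was at -0.030 and RPL3 at -0.056 between match and mifepristone on signals as deposited; IER3 at 0.038 on those and 0.027 with spike-in scaling between mifepristone and non-treated; and DUSP1 at 0.012 between match and dexamethasone with spike-in scaling. The cause was not tested. Other values belong to other probe sets. With 1 added, another probe set stands for KLF9, at -0.057, and for SDK2, at 0.053 between match and dexamethasone. The same SDK2 probe set stands for the gene without dexamethasone replicate 1 or 2 or mifepristone replicate 3, so that leaving out 1 array gave -1.98 to 0.013 between match and dexamethasone and -1.39 to 0.038 between match and mifepristone. The probe set used otherwise stayed at -1.30 to -1.31 between match and mifepristone in those 3 cases. GRAMD4 was at 0.010 between match and mismatch on the mean of its 2 probe sets, which were at -0.62 and 0.64. Leaving out 1 array gave 10701 to 12354 calls for match against mifepristone, 5399 to 6285 higher, 5302 to 6069 lower, 742 to 889 higher and 1494 to 1640 lower at 2-fold, 57 to 70 and 21 to 27 raised genes higher and lower, 12 to 17 and 25 to 31 lowered genes, and 42 to 75 calls for mifepristone against non-treated (42 without mifepristone replicate 1 and 43 without non-treated replicate 2). A replicate block, with numbers that did not pair the arrays, gave 12307 calls (main 12315).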
